A study of Mus musculus with 16 samples.

Results

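Synaptic vesicle and exocytosis genes were followed in mouse hippocampal neurons cultured with human apoE lipoproteins. The group holds 54 genes, taken by name from a fixed list of presynaptic vesicle, SNARE and active zone genes, of the 48397 gene symbols with counts in each library, and all 54 are listed in all 16 libraries. By role they are 11 SNARE proteins and SNARE regulators, 13 active zone and priming proteins, 12 synaptotagmins and other C2 domain proteins (Doc2 proteins and otoferlin), 14 vesicle proteins and Rab3 proteins, and 4 proteins of vesicle endocytosis. Low counts kept Cplx3 out of the tests, with 34 counts over all libraries, so that 53 members were tested among 17038 genes.

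The neurons came from wild type CD1 pups of P0 to P2, and every culture, controls included, had received cytosine arabinoside on the third day in vitro (DIV) against dividing non-neuronal cells. At 10 DIV and 13 DIV they were given astrocytic conditioned medium, concentrated 10-fold, and RNA was taken at 17 DIV. Medium of the control group came from Apoe-/- immortalized astrocytes, which make no apoE, and that of the apoE2, apoE3 and apoE4 groups from immortalized astrocytes homozygous for the human isoform. Each group has 4 libraries, 1 from each of 4 independent cultures. Gene counts ran from 14087723 to 34248172 per library with a median of 22221832, and the 54 genes took 0.787 to 1.82% of them.

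A presynaptic terminal stores transmitter in vesicles that are tethered and primed at the active zone, fuse with the membrane when calcium enters, and are then retrieved and refilled. Fusion is driven by SNARE proteins on the vesicle and on the plasma membrane, complexins and Munc13 proteins set their readiness, synaptotagmins such as Syt1 sense the calcium, and NSF takes spent complexes apart. Synapsins and Rab3 proteins hold and guide the vesicle pool, and dynamin with its partners recovers the membrane. In hippocampus, as elsewhere in brain, most of these genes belong to neurons of every kind, whereas some mark particular terminals.

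Levels between genes were compared as CPM (gene counts scaled to the depth of the library) divided by the exon length in kb, over the 4 control libraries. On that scale Rab3a, the most abundant Rab protein of vesicles, stood highest with 195.0 CPM per kb. It was followed by Snap25, the plasma membrane SNARE partner of syntaxin, with 160.3, and by Nsf, the ATPase that separates SNARE complexes, with 150.8. Syngr1 (synaptogyrin 1), Syt11 and Cplx1 had 142.9, 137.5 and 135.4 CPM per kb. The lowest were Cplx3, a complexin of ribbon synapses, with 0.0469, Stx11, a syntaxin best known from granule release in immune cells, with 0.118, Otof, the calcium sensor of hair cell ribbon synapses, with 0.144, and Syn3 (synapsin III) with 0.231.

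Synaptoporin (Synpr) was the member that differed most clearly between the groups. It is a vesicle membrane protein of the synaptophysin family, known from mossy fibre terminals of dentate granule cells and from interneurons. The control libraries had 184.3, 122.4, 111.8 and 129.4 CPM of Synpr, in the order of replicates 1 to 4. With apoE2 the values were 106.3, 62.9, 73.8 and 60.4 CPM. ApoE3 libraries had 68.3, 62.7, 53.9 and 50.7 CPM. With apoE4 they were 136.0, 70.5, 78.7 and 108.1 CPM. Every apoE2 library lay below every control library, as held for 1.05% of all genes, and so did every apoE3 library (1.19%). All apoE4 libraries lay above all apoE3 libraries (1.34% of all genes), and the apoE4 libraries overlapped with those of the control and of apoE2. The means were 137 ± 32.4 CPM in the control, 75.8 ± 21.1 with apoE2, 58.9 ± 8.06 with apoE3 and 98.3 ± 29.9 with apoE4 (SD, n = 4 each).

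**Figure D1:**
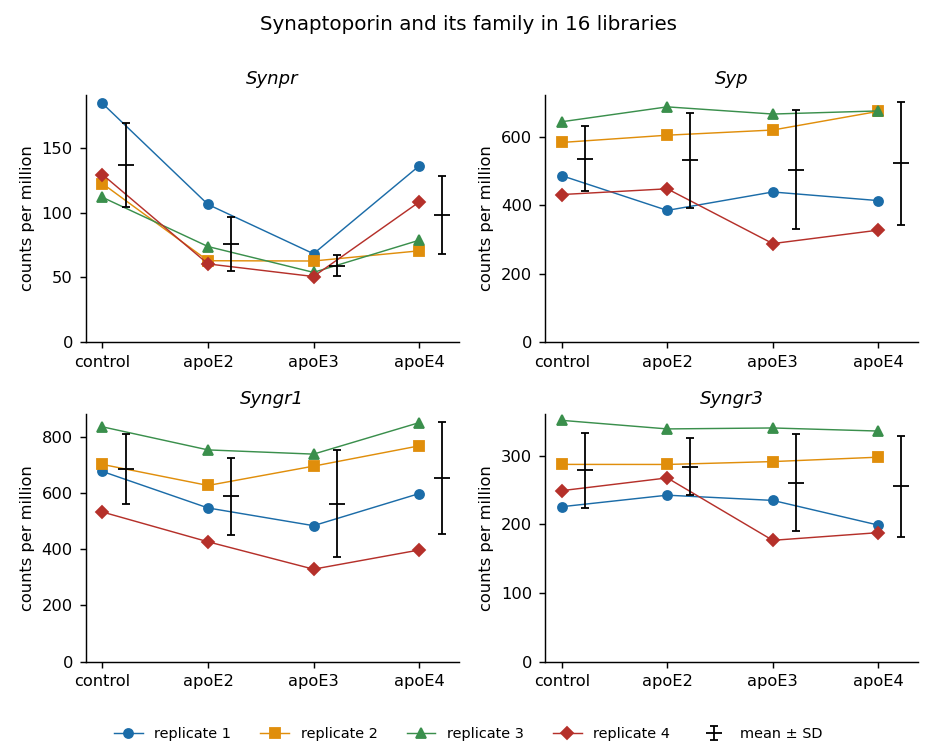
CPM (y axis, from 0) of Synpr, Syp, Syngr1 and Syngr3 in the 4 groups (x axis); coloured points joined by lines are the libraries of 1 replicate number, and the black marks give the mean ± SD of 4 libraries. Synpr lies below the control in all 4 apoE3 libraries and in all 4 apoE2 libraries, whereas Syp, Syngr1 and Syngr3 overlap between all groups and order mainly by replicate number.

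The gene spans chr14:13284780-13616340 on the plus strand (GRCm38/mm10, GENCODE M21), and its exons overlap no other gene's. RefSeq places starts of Synpr transcripts at 2 sites, and a count per gene sums transcripts from both. The 30 bases just before each start are shown, plus strand, 5′ to 3′, because Synpr carries the clearest difference among the members. Capitals mark the GC box GGGCGG, or its complement on the other strand.
Synpr start 1, chr14:13284750-13284779: ccctagcccactctgccCCGCCCacccctc
Synpr start 2, chr14:13453928-13453957: gagctggtgccttagctcatgatgcagcgt
The first window holds 23 G or C bases of 30, the second 17. Promoter windows of 300 bases were on hand for 42 of the 54 members (RefSeq, GRCm38.p6). GGGCGG was found on either strand in 33 of these 42 genes (78.6%) and in 38.2% of all 27025 genes with a window, CCAAT in 13 (31%) against 41.1%, and TATAAA in 2 (4.76%) against 15.7%. Such matches describe the letters and were not tested against the counts.

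Without a replicate block the difference of Synpr did not pass the adjusted threshold in any comparison (edgeR quasi-likelihood test, Benjamini-Hochberg adjustment over 17038 genes). The log2 fold change against the control was -0.85 (SE 0.23, adjusted p = 0.787) with apoE2, -1.22 (SE 0.232, adjusted p = 0.233) with apoE3 and -0.48 (SE 0.229, adjusted p = 1) with apoE4. DESeq2 gave it an adjusted p of 0.000636 with apoE3, and of 0.132 and 1 with apoE2 and apoE4. Same-numbered libraries deviated together in every pair of groups, and the fit with the replicate number as a block called Synpr lower with all isoforms. There the log2 fold changes were -0.86 (SE 0.126, adjusted p = 0.0045) with apoE2, -1.19 (SE 0.127, adjusted p = 0.000134) with apoE3 and -0.49 (SE 0.125, adjusted p = 0.0452) with apoE4. ApoE4 neurons had more Synpr than apoE3 neurons by 0.70 on the log2 scale (SE 0.127, adjusted p = 0.00983), higher in 4 of 4 pairs. The apoE3 call held when the 4 libraries of any 1 replicate number were left out (adjusted p between 0.000215 and 0.00705). Left out in turn, the replicate numbers lost the apoE2 call 1 time of 4 (adjusted p = 0.062 without number 1), the apoE4 call 3 times (0.197, 0.117 and 0.23 without numbers 1, 2 and 3) and the difference between apoE4 and apoE3 2 times (0.163 and 0.0885 without numbers 1 and 3).

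Of 3 relatives of Synpr in the vesicle membrane, Syp and Syngr3 were called in no comparison and in neither fit, and Syngr1 was called lower with apoE3 in the block fit (log2 fold change -0.34, adjusted p = 0.0402). Syp (synaptophysin), the abundant vesicle protein that the study also stained, had 536 ± 95.4 CPM in the control, 531 ± 139 with apoE2, 503 ± 174 with apoE3 and 523 ± 179 with apoE4 (SD, n = 4 each). Its log2 fold changes against the control were -0.01, -0.09 and -0.04 without the block, each smaller than its SE of 0.29. In the block fit they were -0.03 with apoE2 and -0.15 with apoE3 (SE 0.121 for both, adjusted p = 0.957 and 0.466). Exons of Syp share 16.8% of their bases with a gene on the other strand, and as the strand setting of the counts is not given in the sources used here, reads of Syp and of that gene cannot be told apart there. Within a library the ratio of Synpr to Syp averaged 0.266 ± 0.0924 in the control, 0.156 ± 0.0815 with apoE2, 0.128 ± 0.0448 with apoE3 and 0.22 ± 0.127 with apoE4 (SD, n = 4 each). Syngr3 had a log2 fold change of -0.09 with apoE3 (SE 0.226, adjusted p = 0.93, and 0.514 with the block).

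Markers of neurons that hold Synpr moved as well, and their part in its difference was not tested. Of 5 tested markers of dentate granule neurons, the block called Dsp and Calb1 lower and Maml2 higher with apoE3, and Prox1 and C1ql2 had log2 fold changes of -0.49 and -0.77 (adjusted p = 0.0555 and 0.0539). The summed level of the 6 listed granule cell markers, with the untested Lct, ran from 197.3 to 353.1 CPM in the control and from 138.6 to 241.5 with apoE3. Of 10 markers of GABAergic neurons, Gad1, Dlx1, Lhx6 and Vip were called lower with apoE3 and Pvalb higher, and the sums ran from 394.8 to 604.2 CPM in the control and from 311.3 to 515.8 with apoE3. For each 100 CPM of GABAergic markers there were 25.9 ± 4.18 CPM of Synpr in the control and 14.1 ± 2.17 with apoE3, and for each 100 CPM of granule cell markers 51.2 ± 9.62 and 32.4 ± 7.94 (SD, n = 4 each). With apoE2 the granule cell markers summed to between 280.9 and 316.3 CPM, and Synpr per 100 CPM of them was 25.2 ± 6.11 (SD, n = 4). With apoE4 they summed to between 164 and 263.1 CPM, Synpr per 100 CPM of them was 47.3 ± 10.3 (SD, n = 4), and the block called Calb1 lower (adjusted p = 0.0278) and Maml2 higher (adjusted p = 0.0297). Calb1, the largest entry of these sums in all but the apoE4 group, averaged 134.8 CPM in the control. It averaged 184.2 CPM with apoE2, 90.2 with apoE3 and 76.9 with apoE4, where Prox1 had 82.0, 59.1, 55.4 and 79.1 CPM from control to apoE4. With apoE2, 3 of the 5 tested granule cell markers lay above 0 and 2 below, and the block called 0 of them. For each 100 CPM of GABAergic markers there were 16.7 ± 4.53 CPM of Synpr with apoE2 and 18.4 ± 4.16 with apoE4 (SD, n = 4 each). In bulk RNA, fewer cells of a type and less RNA per cell cannot be told apart.

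With apoE3 the median log2 fold change was -0.17 over the tested members and 0.02 over all genes, and 43 of 53 members lay below 0, against 47.6% of all genes. Without apoE3 replicate 4, the library with the lowest members, 26 lay below 0 and the median was 0.00876, and without apoE3 replicate 2 there were 45 and a median of -0.362. No member passed the adjusted threshold without the block, where 0.00587% of all genes did, and 1 member, Synpr, had an unadjusted p under 0.05, as 6.43% of all genes had, and was the 1 member that DESeq2 called, where it called 0.352% of all genes. Synpr alone met the criterion of the study, which asks for a 2-fold change or more and for an unadjusted p under 0.05, and which 1.96% of all genes met. The fit with the replicate block called 12 members at an adjusted p under 0.05, where it called 11.7% of all genes. Of these 12, 11 were lower, against 3.73% of all genes called lower, and 1 was higher, against 7.95% called higher. In each of the 12 all 4 pairs of same-numbered cultures went the same way. This gives the calls no separate support, because the block fit selects genes by their differences within replicate numbers.

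Among SNARE proteins and their regulators, 2 members were called lower with apoE3 in that fit, 1 higher, and 7 of the 10 tested were not called. Cplx2 (complexin 2), a clamp and promoter of SNARE fusion, had 604.9, 620.7, 602.2 and 422.3 CPM in the control libraries. In the apoE3 libraries it had 416.5, 455.0, 452.5 and 299.9 CPM. All 4 apoE3 libraries lay below the other controls, and 2 of them lay above control replicate 4, the lowest control. Its log2 fold change was -0.47 (SE 0.224, adjusted p = 0.77), and -0.47 with the block (SE 0.123, adjusted p = 0.0231). Snap25 had 856.4, 1296, 1584 and 618.3 CPM in the control and 656.2, 1218, 1301 and 392.7 with apoE3. Its level was lower with apoE3 in each pair although the groups overlap widely, with a log2 fold change of -0.35 in the block fit (SE 0.101, adjusted p = 0.0378). Cplx1, the other complexin with a high level, ran from 251.2 to 336.6 CPM over all libraries, with 297 ± 23.1 CPM in the control and 308 ± 38.8 with apoE3 (SD, n = 4 each), and Nsf had 1258 ± 158 and 1061 ± 301 CPM (adjusted p = 0.173 with the block).

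Stx11 (chr10:12938209-12964298, minus strand) was the only member called higher with apoE3. It had 0.364, 0.121, 0.349 and 1.15 CPM in the control, from 3 to 22 counts a library, and 2.21, 0.164, 0.914 and 3.87 CPM with apoE3, from 4 to 59 counts. The groups overlap, and the highest value in either is that of replicate 4. The log2 fold change was 1.84 (SE 0.884, adjusted p = 0.77), and 1.71 with the block (SE 0.393, adjusted p = 0.0122). With apoE2 and apoE4 it was 1.17 and 1.34 (adjusted p = 1 for both), and in the block fit 1.22 (adjusted p = 0.162) and 1.45 (adjusted p = 0.0649), higher than the control in 4 of 4 pairs each time. Over the libraries of a group Stx11 was highest in replicate 4 of the control, apoE3 and apoE4 groups and in replicate 1 with apoE2, where it had 1.83, 0.229, 0.919 and 1.45 CPM. Within each group, the summed level of 7 markers of fibroblasts and mural cells was highest in the same library as Stx11. It was 162.2 CPM in control replicate 4, 151.3 in apoE2 replicate 1, 306.1 in apoE3 replicate 4 and 266.1 in apoE4 replicate 4. The lowest of all libraries had 22.3 CPM, and apoE4 replicate 1, with 164.8 CPM, exceeded those control and apoE2 libraries. The 8 astrocyte markers also summed highest within each group in these 4 libraries, with 3162, 3151, 6581 and 5359 CPM. The 6 microglial markers summed to between 5.83 and 29.1 CPM and were highest in replicate 4 of each group. The part of these cells in the level of Stx11 was not tested.

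Active zone and priming proteins had 2 of 13 members called lower with apoE3 and none higher. Unc13a (Munc13-1), which primes vesicles for fusion, had 428.6, 527.9, 550.1 and 358.0 CPM in the control and 307.4, 462.0, 466.8 and 249.7 with apoE3. Each apoE3 value was below that of the same-numbered control, and the groups overlap; the log2 fold change was -0.36 in the block fit (SE 0.107, adjusted p = 0.0426). Rimbp2 (RIM-binding protein 2), which links calcium channels to the release site, had 80.5, 73.5, 71.1 and 46.3 CPM in the control and 43.5, 67.2, 55.6 and 21.7 with apoE3. Its log2 fold change was -0.59 in that fit (SE 0.173, adjusted p = 0.0383). The scaffolds Bsn (Bassoon) and Pclo (Piccolo), had log2 fold changes of -0.33 and -0.26 with the block (adjusted p = 0.373 and 0.469). Ppfia2 (liprin-alpha-2), the active zone member second to Unc13a in level per length, had 375 ± 46.7 CPM in the control and 315 ± 97.1 with apoE3 (SD, n = 4 each; adjusted p = 0.0997 with the block), and 24.5% of its exon bases lie opposite a gene on the other strand.

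Of the 12 synaptotagmins and other C2 domain proteins, some of which sense calcium, 11 lay below 0 with apoE3 and 2 were called lower with the block. Syt7, the slow, high-affinity synaptotagmin of asynchronous release, had 120.5, 111.8, 149.0 and 86.5 CPM in the control. With apoE3 it had 68.0, 89.5, 116.1 and 46.8 CPM. The log2 fold change was -0.55 (SE 0.304, adjusted p = 0.803), and -0.59 with the block (SE 0.121, adjusted p = 0.00657). This call held without replicate number 2, 3 or 4 and had an adjusted p of 0.079 without number 1. Syt5 had a log2 fold change of -0.44 in the block fit (SE 0.126, adjusted p = 0.0356), with 125 ± 27.7 CPM in the control and 96.1 ± 37.2 with apoE3 (SD, n = 4 each). Syt1, the fast calcium sensor of synchronous release, had 736 ± 228 and 622 ± 270 CPM (SD, n = 4 each) and missed the threshold (adjusted p = 0.0673 with the block). Syt11, a synaptotagmin that does not bind calcium, was the 1 of these 12 above 0, with 716 ± 105 CPM in the control and 820 ± 124 with apoE3 (SD, n = 4 each; adjusted p = 0.146 with the block).

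Of 14 vesicle proteins and Rab3 proteins, 4 were called with apoE3 in the block fit, all lower. Beside Synpr they were Syn2, Sv2b and Syngr1. Syn2 (synapsin II), which tethers vesicles of the reserve pool, had 613.1, 908.2, 628.3 and 463.6 CPM in the control. With apoE3 it had 368.9, 688.4, 419.9 and 210.8 CPM. Each apoE3 value was below that of its same-numbered control, although the groups overlap. Its log2 fold change was -0.63 (SE 0.356, adjusted p = 0.803), and -0.71 with the block (SE 0.11, adjusted p = 0.00137). The call held without any 1 replicate number (adjusted p at most 0.0273), as for Synpr and for no other member. Sv2b, a vesicle glycoprotein, had 469.3, 904.5, 922.4 and 354.9 CPM in the control and 329.7, 769.3, 654.3 and 226.4 with apoE3, a log2 fold change of -0.47 with the block (SE 0.133, adjusted p = 0.035). Syngr1 had 687 ± 124 CPM in the control and 562 ± 191 with apoE3 (SD, n = 4 each), and the SE of its log2 fold change was 0.101. Rab3a, with 434 ± 58.6 and 395 ± 101 CPM (SD, n = 4 each), was not called (adjusted p = 0.333 with the block).

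In vesicle endocytosis, Dnm1 (dynamin 1), the GTPase that pinches off vesicles, had 560.8, 672.2, 707.3 and 395.7 CPM in the control and 401.5, 580.2, 558.7 and 224.8 with apoE3. It was lower in each pair, with a log2 fold change of -0.46 in the block fit (SE 0.112, adjusted p = 0.017). Amph (amphiphysin), its partner at the neck of the vesicle, had 291 ± 42.5 and 259 ± 62.9 CPM (SD, n = 4 each) and was not called (adjusted p = 0.232 with the block).

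**Figure D2:**
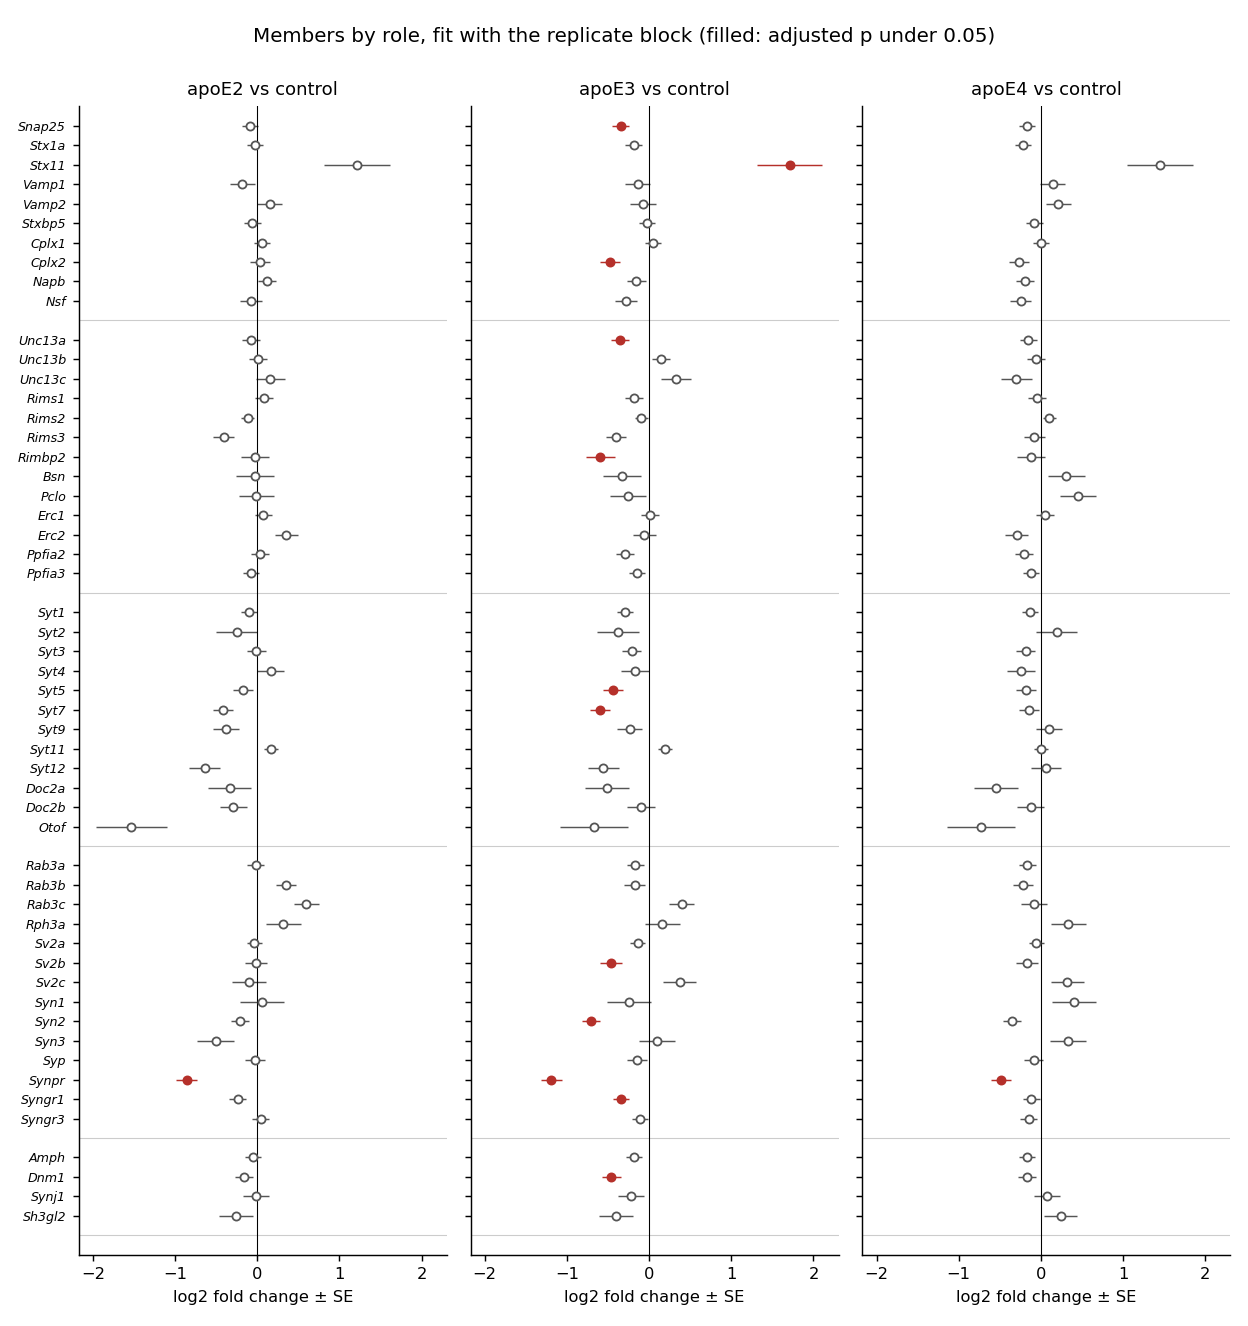
Log2 fold change ± SE (x axis, same scale in each panel) of the 53 tested members (y axis), against the control, in the edgeR fit with the replicate block; grey lines part the roles in the order SNARE proteins and regulators, active zone, synaptotagmins and other C2 domain proteins, vesicle proteins, endocytosis. Filled red points passed an adjusted p under 0.05: Synpr in all panels, and 11 further members with apoE3.

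The number of members called with apoE3 depended on which cultures were kept. Without the 4 libraries of a replicate number, the block fit called 2 members without number 1, 14 without number 2, 3 without number 3 and 9 without number 4, and it called 2.41, 11.3, 4.62 and 8.54% of all genes. Between 38 and 46 of the 53 members lay below 0 in these fits, against 43 with all libraries.

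Markers of other cells moved along with apoE3 in the same libraries. Summed levels of 8 astrocyte markers ran from 1413 to 3162 CPM in the control, with a median of 2305, from 1309 to 3151 with apoE2, with a median of 2947, from 1700 to 6581 with apoE3, with a median of 3864, and from 1571 to 5359 with apoE4, with a median of 3548. The block fit called 7 of the 8 higher with apoE3, all but Slc1a2, and 3 of the 8 higher with apoE4. With apoE3 it also called higher 3 of 7 markers of the oligodendrocyte lineage, 1 of 7 of fibroblasts and mural cells and 1 of 5 of dividing cells, and none of 6 of microglia, against 7.95% of all genes called higher. Of 8 pan-neuronal markers 1 was called higher (Tubb3) and 1 lower (Nefl) with apoE3, their median log2 fold change was -0.10 in that fit and -0.06 without the block, and their sums ran from 3447 to 5066 CPM in the control and from 2801 to 5100 with apoE3. Among 6 markers of glutamatergic neurons 1 was called higher (Slc17a6) and 0 lower, against 7.95 and 3.73% of all genes. Their median was -0.22 in that fit and -0.185 without the block. Sums of these 6 ran from 992.9 to 2182 CPM in the control and from 587.6 to 2091 with apoE3. None of the markers of these lists was at 0 throughout. The part of these cells in the lower levels of the members was not tested.

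**Figure D3:**
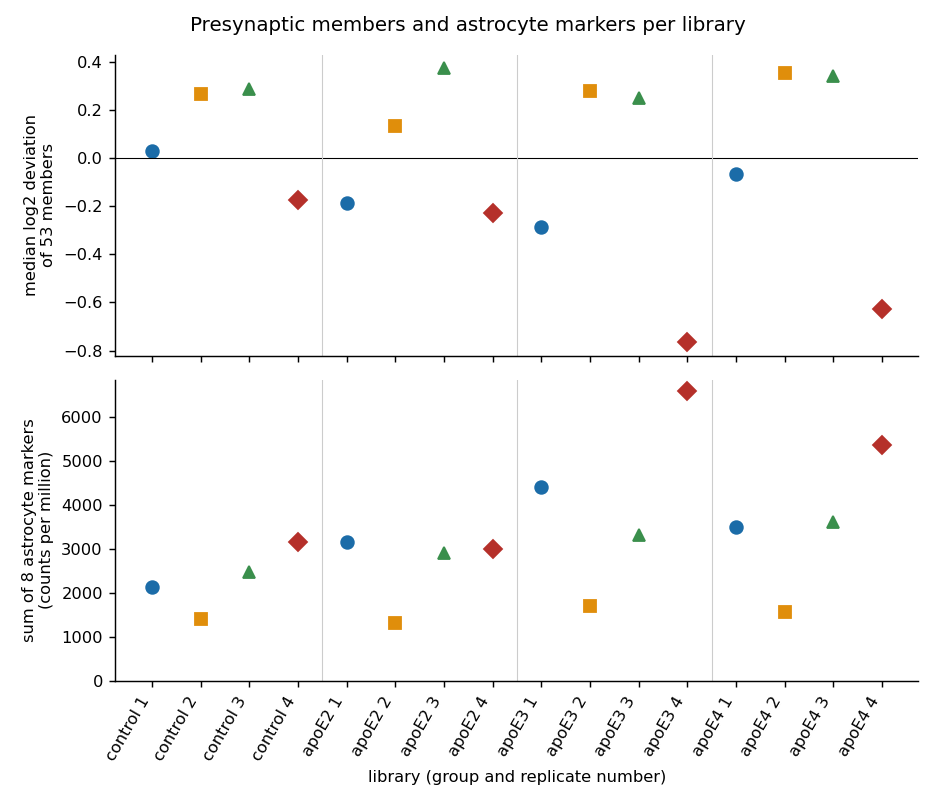
Upper panel, the median over 53 members of the log2 deviation from each gene's mean over 16 libraries (y axis); lower panel, the summed level of 8 astrocyte markers in CPM (y axis, from 0), for each library (x axis; colour and shape mark the replicate number). Libraries apoE3 4 and apoE4 4 have the lowest member medians, -0.765 and -0.627, and the highest astrocyte sums, 6581 and 5359 CPM.

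The replicate number held a median of 72.9% of the variance of log2 CPM in the members and the group 10.9%, against 56.2% and 14.4% in all genes. In 48 of 53 members the number held over 50% of the variance. Libraries of replicate 4 were low, with a median deviation of -0.41 and 6 of 53 members above their own mean, and those of replicates 2 and 3 were high, with 49 and 44 members above it. Stx11 went the other way, with its highest deviation in replicate 4 (1.25 on the log2 scale) and its lowest in replicate 2 (-1.52). The group held more of the variance than the number in 2 members, Synpr (69.5 against 22%) and Rab3c (41.4 against 39.1%), and Cplx1 had the lowest share between numbers (14.1%).

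**Figure D4:**
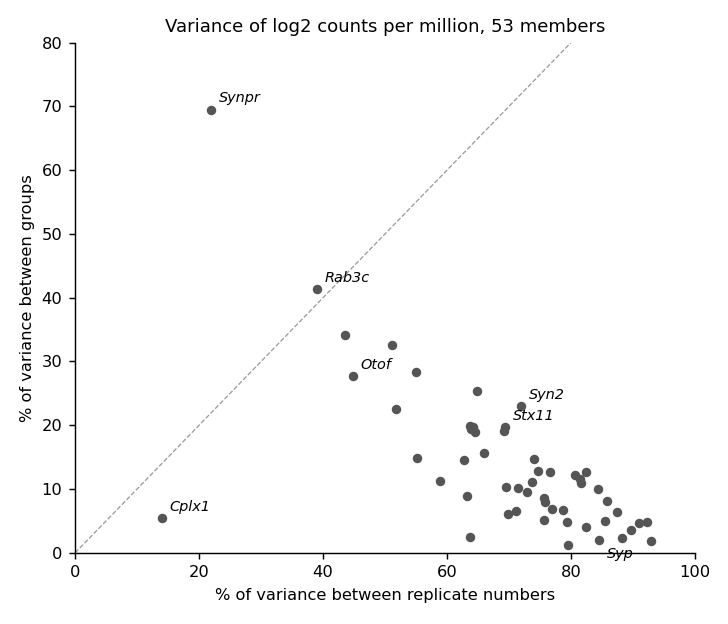
Share of the variance of log2 CPM between replicate numbers (x axis, %) and between the 4 groups (y axis, %), 1 point for each of 53 tested members; the dashed line marks equal shares. Synpr and Rab3c lie above the line, and Syp is among the members at the lower right with 84.6 and 2.08%.

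With apoE2 the members had a median log2 fold change of -0.05 and 34 of 53 lay below 0, against 47.7% of all genes. Without control replicate 3 there were 21 below 0, and without apoE2 replicate 3 there were 45, with a median of -0.173. No member and 0% of all genes passed the adjusted threshold without the block, and 3 members had an unadjusted p under 0.05, as 2.79% of all genes had; DESeq2 called none, and 0.188% of all genes. With the block Synpr was the only member called, where 1.73% of all genes were. Otof was the member that met the criterion of the study, which 0.722% of all genes met. It had 1.00, 2.495, 0.279 and 0.786 CPM in the control and 0.282, 0.459, 0.192 and 0.458 with apoE2, from 258 counts in all libraries. Control replicate 2 was the highest library, and the log2 fold change of -1.67 (adjusted p = 1) became -0.94 without it, which no longer met the criterion. Otof did not meet it either in the two-sample test that the methods of the study name. Rab3c, 1 of the Rab3 proteins of vesicles, had 441 ± 64.6 CPM in the control and 670 ± 141 with apoE2 (SD, n = 4 each), higher in 4 of 4 pairs, with a log2 fold change of 0.60 (adjusted p = 1, and 0.0659 with the block).

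With apoE4 the median log2 fold change of the members was -0.08, and 34 of 53 lay below 0 against 49.6% of all genes. Without apoE4 replicate 4, 16 lay below 0, and without apoE4 replicate 3, 39 did, with a median of -0.2. None passed the adjusted threshold without the block, as 0.194% of all genes did, none had an unadjusted p under 0.05, as 3.3% of all genes had, and none met the criterion of the study, met by 1.15% of all genes. DESeq2 called none as well, and 0.534% of all genes. In the block fit Synpr was the only member called, where 3.3% of all genes were called and 0.129% called lower. The 3 comparisons with the control share the same 4 control libraries.

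Between the isoforms, 39 of 53 members lay above 0 for apoE4 against apoE3, where 53.2% of all genes lay below 0, with a median of 0.13 on the log2 scale. No member passed the adjusted threshold without the block (0.147% of all genes did) and 1 had an unadjusted p under 0.05, as 4.7% of all genes had; DESeq2 called none, and 0.405% of all genes. Synpr alone was called with the block, against 1.76% of all genes. The median of the members moved to -0.000526 without apoE4 replicate 3, and 27 members were then below 0, whereas without apoE3 replicate 2 the median was 0.298 and 7 were below 0. None of the members met the criterion of the study in this comparison, which 1.25% of all genes met.

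ApoE4 against apoE2 gave 5 members called with the block, against 4.44% of all genes, and none without it, against 0.252%, where 3 members and 5.34% of all genes had an unadjusted p under 0.05. DESeq2 called none, and 0.968% of all genes. Lower with apoE4 were Erc2, Rab3b and Rab3c. Erc2 (CAST), an active zone scaffold, had 223.2, 402.3, 339.9 and 280.2 CPM with apoE2. With apoE4 it had 196.7, 302.2, 169.6 and 141.1 CPM. Its log2 fold change was -0.62 (SE 0.279, adjusted p = 0.899), and -0.65 with the block (adjusted p = 0.0154). Rab3c had 471.9, 785.0, 753.8 and 668.4 CPM with apoE2 and 390.8, 624.2, 423.5 and 272.9 with apoE4, a log2 fold change of -0.68 with the block (adjusted p = 0.0196). Rab3b was lower in each pair too, with 22.3 ± 9.19 and 14.8 ± 6.12 CPM (SD, n = 4 each; adjusted p = 0.0155 with the block).

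Syt12 and Syn3 were called higher with apoE4 than with apoE2. Syt12, a synaptotagmin that binds no calcium, had 6.77, 6.84, 17.5 and 4.53 CPM with apoE2 and 7.05, 15.7, 38.2 and 5.14 with apoE4. The pairs of replicates 1 and 4 differed little, and the log2 fold change was 0.70 with the block (adjusted p = 0.0468). Exons of Syt12 share 17.2% of their bases with a gene on the other strand, and those of Syn3 14.1%. Syn3, a synapsin of early neuronal development, had 2.11, 1.83, 1.57 and 2.14 CPM with apoE2 and 3.32, 3.36, 2.66 and 4.33 with apoE4. Its groups did not overlap, as held for 1.9% of all genes in that direction, and the log2 fold change was 0.83 with the block (adjusted p = 0.0494). None of these 5 calls held without every replicate number in turn. They held in 2 of the 4 fits for Erc2 and Syt12, in 3 for Rab3c, in 1 for Rab3b and in 0 for Syn3.

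**Figure D5:**
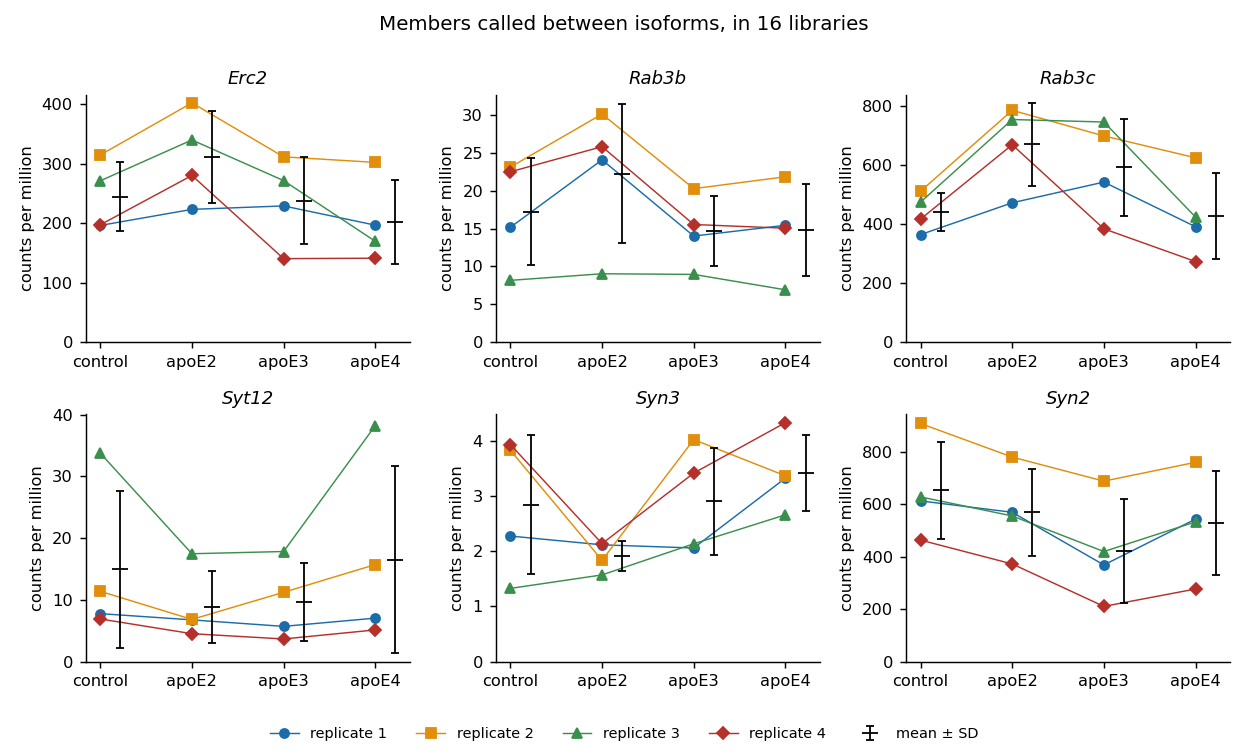
CPM (y axis, from 0) of the 5 members called between apoE4 and apoE2 and of Syn2, in the 4 groups (x axis); coloured points joined by lines are the libraries of 1 replicate number, and the black marks give the mean ± SD of 4 libraries. Erc2, Rab3b and Rab3c are lower with apoE4 than with apoE2 in every replicate number, Syt12 and Syn3 higher, and Syn2 is lowest with apoE3 in every replicate number.

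ApoE3 against apoE2 gave 40 of 53 members below 0, where 46.7% of all genes were, with a median log2 fold change of -0.13, and there were 21 without apoE3 replicate 4 and 45 without apoE3 replicate 2. No member and 0% of all genes were called without the block, and 1 member had an unadjusted p under 0.05, as 2.28% of all genes had; DESeq2 called none, and 0.0528% of all genes. Syn2 was called lower with the block, against 1.31% of all genes, with a log2 fold change of -0.50 (adjusted p = 0.0384), and this call was lost without any 1 replicate number. Cplx2 was lower in all apoE3 libraries than in any apoE2 library, as held for 0.963% of all genes. None of the members met the criterion of the study against apoE2, with apoE4 (1.3% of all genes) or with apoE3 (0.687%).

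Beside the members, 71 further presynaptic genes were listed, of which 70 were in the files and 69 tested. With apoE3, 43 of the 69 lay below 0, against 47.6% of all genes, and the block fit called 6 higher and 8 lower, against 7.95% and 3.73% of all genes. With apoE2 it called 1 higher and 1 lower, against 1.73% of all genes called, and with apoE4 1 higher, against 3.3% called. Without the block none was called in any of the 3. Rab27b, a Rab protein of secretory granules, had 17.5 ± 6.43 CPM in the control and 38.7 ± 13.7 with apoE2 (SD, n = 4 each), a log2 fold change of 1.14 (adjusted p = 0.932, and 0.004 with the block). Sypl, a synaptophysin-like protein found mainly outside neurons, had 19.0 ± 0.415 CPM in the control and 27.2 ± 3.47 with apoE3 (SD, n = 4 each), a log2 fold change of 0.52 (adjusted p = 0.424, and 0.00439 with the block). Rims4, a short RIM protein, had 81.0 ± 10.1 and 59.8 ± 10.1 CPM (SD, n = 4 each), a log2 fold change of -0.44 with apoE3 (adjusted p = 0.593, and 0.00758 with the block). Cltb, a clathrin light chain, was higher with apoE3 by 0.25 on the log2 scale (adjusted p = 0.0343 with the block). With apoE4 the genes of smallest p were Sh3gl3 and Sh3gl1, endophilins of vesicle endocytosis, and Sypl, in the fit without the block, and none of these 3 was called in either fit. Sh3gl3 had 32.3 ± 6.13 CPM against 41.8 ± 5.05 in the control (SD, n = 4 each), lower in 4 of 4 pairs, with a log2 fold change of -0.37 (adjusted p = 1, and 0.0719 with the block). With apoE3 the block called Sh3gl3 lower (log2 fold change -0.45, adjusted p = 0.0157). Sh3gl1 had a log2 fold change of -0.18 and Sypl of 0.30 (adjusted p = 1 for both, and 0.208 and 0.154 with the block). The gene called higher with apoE4 in the block fit was Ston1 (stonin 1), an endocytic adaptor, with 1.88 ± 1.23 CPM in the control and 4.53 ± 2.69 with apoE4 (SD, n = 4 each), a log2 fold change of 1.30 with the block (SE 0.24, adjusted p = 0.00681) and 1.26 without it (adjusted p = 1), higher in 4 of 4 pairs. Ston1 was also called higher with apoE3 in the block fit, with 4.10 ± 3.46 CPM (log2 fold change 0.94, adjusted p = 0.0226). Called lower with apoE2 was Syt17, with 59.7 ± 10.6 CPM in the control and 39.7 ± 12.5 with apoE2 (SD, n = 4 each), a log2 fold change of -0.63 with the block (adjusted p = 0.0405) and -0.59 without it (adjusted p = 1). With apoE2, Sypl and Rims4 followed Rab27b, with log2 fold changes of 0.31 and -0.31 (adjusted p = 1 for both, and 0.148 and 0.103 with the block).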

How the data were processed

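RNA of primary hippocampal neurons was depleted of ribosomal RNA and made into TruSeq libraries, 4 for each of 4 groups, with groups and replicate numbers taken from the sample titles. Per the methods, the authors mapped reads to mm10 by STAR and HTSeq summed them by gene; the files deposited hold these raw counts, 1 row for each of 48397 symbols. The annotation and the strand setting are not given in the sources used here. HTSeq rows that name no gene held 38.4 to 73.7% of a library and were left out. The single gene Lars2 held 0.359 to 15% of the gene counts of a library. Whether either share goes with the levels of the members was not tested.

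Counts were tested with edgeR 4.0.16 (TMM, filterByExpr with a minimum count of 10, quasi-likelihood test with 1 coefficient per group over all 16 libraries, R 4.3.3), with Benjamini-Hochberg adjustment over 17038 genes and a threshold of 0.05. The criterion of the study, 2-fold or more and an unadjusted p under 0.05, was applied to the same fit. CPM are scaled by TMM. Levels between genes used exon lengths of GENCODE M21, and no levels of proteins were analysed here. Deviations from group means correlated between same-numbered libraries in every pair of groups (r from 0.362 to 0.831 over all tested genes, where libraries of different numbers had -0.736 to 0.569), so the replicate number, which the sample titles carry, was taken to pair the libraries and was added as a block in a second fit. The block lowered the common dispersion from 0.132 to 0.0178. Libraries of a group differed by 39.6 to 441 times their sampling noise (chi-square per degree of freedom), and none was a duplicate. The edgeR fits without and with the block were run on simulated counts that carried a shared replicate effect, for apoE4 against the control only. DESeq2, the two-sample test and the offsets were not checked in this way.

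Alternatives were DESeq2 1.42.0 as the test or for size factors, no filter or a stricter one (1 CPM in 8 libraries), only the groups compared, the block, offsets by exon length and GC content, the two-sample test named in the methods of the study, and each library left out. The block fit without each replicate number was added after seeing the data. Members and gene lists were chosen with earlier results of these data known. Genes named with values are the members called or at the criterion in either fit, the 2 highest per length in each role, Otof, Stx11, Synpr and Syp, and, among further presynaptic genes, those of smallest p. Cplx3 is named for its low counts. Cplx1, Syngr3, Bsn, Pclo, Ston1 and Syt17 fall outside this rule and were chosen after their values were seen.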

Additional observations from a re-analysis of the deposited data

Results flagged for a closer look

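Within groups of 4 libraries, 3 of 100 groups of the named members held a library far from the other 3 by Dixon's test for outliers, which chance passes in about 1 of 20 groups. Cplx2 had 422.3 CPM in control replicate 4, against 602.2 to 620.7 in the other controls, and it was also lowest in replicate 4 of the other groups. Syt12 had 33.8 CPM in control replicate 3, against 6.91 to 11.4 in the others, and it was also highest in replicate 3 of the other groups. Amph had 353.9 CPM in control replicate 2, against 260.4 to 275.8 in the others, and it was also highest in replicate 2 of the other groups.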

How the results depend on the processing

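No member called in any comparison changed its direction under the alternatives run. Adding the replicate block raised the members at an adjusted p under 0.05 from 0 to 1 with apoE2, 12 with apoE3, 1 with apoE4, 1 for apoE4 against apoE3, 5 for apoE4 against apoE2 and 1 for apoE3 against apoE2. The block with offsets for length and GC content gave 1, 14, 2, 1, 3 and 3 in the same order, where it called 1.88, 14.1, 2.98, 1.94, 4.75 and 1.7% of all genes, and DESeq2 gave 1 with apoE3. Left out in turn in the block fit, the replicate numbers gave 0 to 3 members with apoE2, 2 to 14 with apoE3, 0 to 1 with apoE4, 0 to 1 for apoE4 against apoE3, 1 to 3 for apoE4 against apoE2 and 0 for apoE3 against apoE2. These fits called 0.12 to 4.14% of all genes with apoE2, 2.41 to 11.3% with apoE3, 0.808 to 3.04% with apoE4, and 0.25 to 2.17%, 1.46 to 3.37% and 0.0893 to 0.678% in the 3 comparisons between isoforms. At the criterion of the study, apoE2 had 1 member, 0 under the stricter filter (met by 0.457% of all genes) and the two-sample test (0.534%), 2 with the block (1.56%) and with block and offsets (1.52%), and 0 to 2 when a library was left out (0.646 to 1.35%). ApoE3 had 1, 2 without a filter (2.9%), with DESeq2 (2.62%), with the block (4.77%), with the offsets (1.99%) and with both (4.3%), and 1 to 2 when a library was left out (1.2 to 5.32%). ApoE4 had 0, 1 with the block (2.5%) and with block and offsets (2.16%), and 0 to 1 when a library was left out (0.937 to 2.15%). Otof, the member at the criterion with apoE2, did not pass the stricter filter of 1 CPM in 8 libraries and so was not tested there. The cause of the other differences was not tested. Depth limits Cplx3, which had 34 counts and was not tested, Otof with 258 counts and Stx11 with 371.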
